A study of Mus musculus with 6 samples.

Results

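Genes of insulin action in fat were followed across all libraries of a study of Steap4 in adipose tissue. The 10 genes are Insr, Irs1, Irs2, Pik3r1, Akt1, Akt2, Foxo1, Slc2a4, Slc2a1 and Retn. They were taken by symbol from a table of normalized counts, in which all 10 were found among 15176 genes. RNA came from inguinal white adipose tissue, a subcutaneous fat pad, of mice on a high-fat diet. The 4 control libraries were from Steap4f/f mice, which carry a floxed Steap4 gene (replicates 1, 2, 5 and 6), and the 2 others from Steap4AKO mice, which lack Steap4 in adipocytes (replicates 2 and 3). The Cre line, the age of the mice and the length of the diet are not stated in the sources used. No label says that each library is a separate mouse, so that p-values here reflect the spread among the libraries, which may be technical.

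Insulin binds a receptor tyrosine kinase, encoded by Insr, which phosphorylates the docking proteins IRS1 and IRS2. These recruit PI3-kinase, whose regulatory subunit p85 alpha is encoded by Pik3r1, and the lipid it makes activates the kinases AKT1 and AKT2. In adipocytes AKT2 releases the glucose transporter GLUT4 (Slc2a4) to the cell surface and AKT keeps the transcription factor FOXO1 out of the nucleus, while GLUT1 (Slc2a1) carries basal glucose uptake in many cell types. Resistin (Retn) is a hormone secreted by mouse adipocytes that opposes insulin action.

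The libraries were not alike. Steap4AKO replicate 2 stood apart, with 1080 genes more than 2-fold above each of the other libraries, against 20 to 148 such genes in the others. More than 2-fold below each of the others were 390 genes there, 425 in Steap4f/f replicate 1 and 72 to 187 in the rest. The 7 epithelial markers summed to 2926 in that library and to between 49.8 and 155.8 in the others, and the 7 macrophage markers stood at 331% of their Steap4f/f mean there and at 86.4 to 110% elsewhere. There mesothelial markers were at 1653% (12.7 to 327% elsewhere), B cell markers at 848% (12.1 to 190% elsewhere) and the 5 Schwann cell markers summed to 701.2 (4811 to 13942 elsewhere). The 9 adipocyte markers, each relative to its Steap4f/f mean, averaged 63.1% in Steap4AKO replicate 2, 104% in replicate 3 and 96.0 to 107% in Steap4f/f. All 9 adipocyte markers were detected in every library. The 16 skeletal muscle markers averaged 26.7 to 177% in Steap4f/f but 0.831 and 5.32% in Steap4AKO, with none listed at 0. Mature muscle also expresses Slc2a4 and other genes described here, and the part of these differing cell contents in the results was not tested. In whole tissue, fewer cells of a type and less RNA per cell cannot be told apart. Steap4 itself did not separate the genotypes, with 17018, 9417, 8310 and 8851 in Steap4f/f replicates 1, 2, 5 and 6 and 8313 and 8014 in Steap4AKO replicates 2 and 3 (log2 difference -0.35, limma adjusted p = 0.544). The deletion was therefore not visible at the level of the gene in whole tissue, and the groups are named by their labels. Depth in units of 1e+06 reads, estimated from the spacing of the lowest values, was 15.9 to 19.4 in Steap4f/f, 23.2 in Steap4AKO replicate 2 and 18.1 in replicate 3. The range in which that spacing was sought was set after the low values had been seen, and the depth is an estimate only. If 1 read in Steap4AKO replicate 2 were worth 2 such steps, its depth would be 11.6 and it would be the shallowest library, not the deepest.

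None of the 10 genes passed the test between genotypes over all 15006 genes tested (limma, Benjamini-Hochberg threshold of 0.05), where 71 genes (0.473%) passed. Their adjusted p-values ran from 0.227 to 0.801, and 3 of the 10 had an unadjusted p under 0.05, as did 18.1% of all genes. The mean log2 value was lower in Steap4AKO for 6 members and higher for 4, and it was lower for 47.8% of all genes. In 2 members, Slc2a4 and Retn, both Steap4AKO libraries were below every Steap4f/f library, which held for 14.4% of all genes. In 1 member, Slc2a1, both were above every Steap4f/f library, which held for 14.1% of all genes. These counts are too small to set the members apart from other genes. The median log2 difference of the members was -0.25, against 0.02 over all genes tested.

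**Figure D1:**
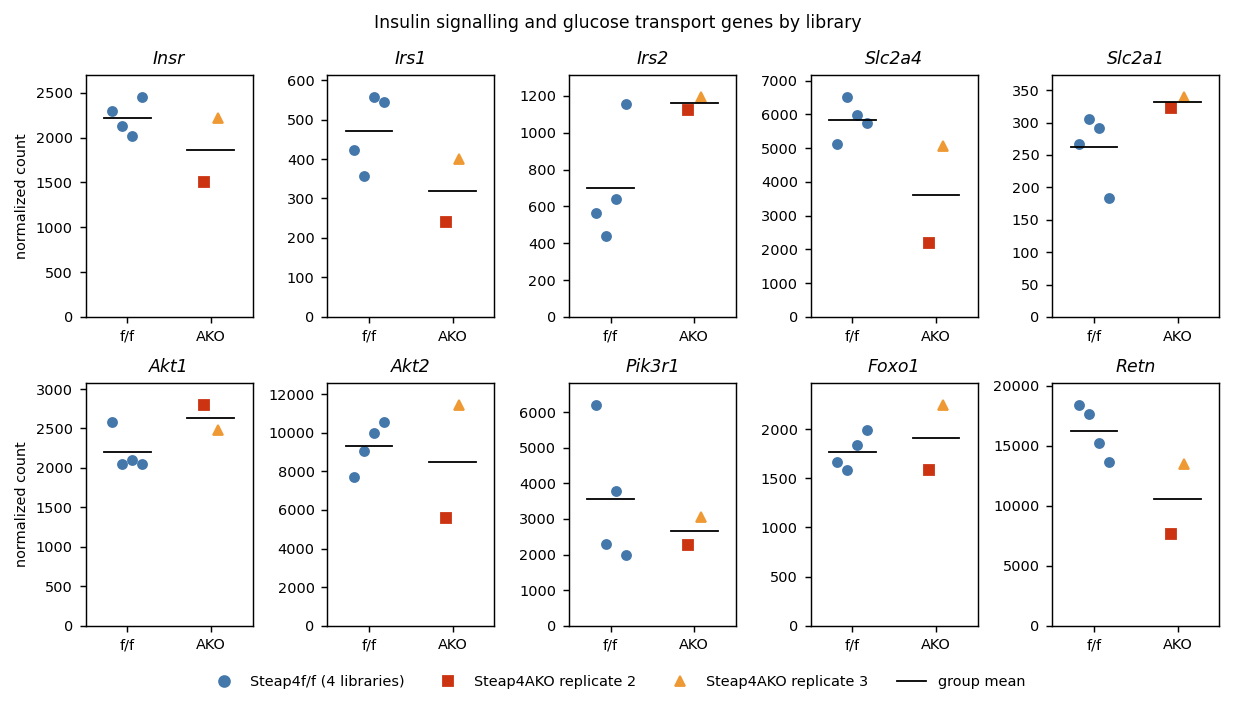
Normalized counts of the 10 genes in each library, on axes that start at 0. Circles are the 4 Steap4f/f libraries, the square is Steap4AKO replicate 2, the triangle is Steap4AKO replicate 3 and lines are group means; Slc2a4 and Retn have both Steap4AKO libraries below the controls, with replicate 2 far lower than replicate 3.

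The 2 Steap4AKO libraries differed from each other in most of these genes. Steap4AKO replicate 2 was the lowest of the 6 libraries for 6 of 10 members (24.2% of all genes), namely Insr, Irs1, Slc2a4, Akt2, Foxo1 and Retn, and the highest for 1, Akt1 (27% of all genes). It lay inside the Steap4f/f range for 2 members, Irs2 and Pik3r1 (39.9% of all genes). Steap4AKO replicate 3 was the lowest for 0 members (13.4% of all genes) and the highest for 4, Irs2, Slc2a1, Akt2 and Foxo1 (14.8% of all genes). It lay inside the Steap4f/f range for 4 members, Insr, Irs1, Akt1 and Pik3r1 (52.1% of all genes). Without Steap4AKO replicate 2, the remaining Steap4AKO library was below every control for 2 members (23.4% of all genes) and above for 4 (24.4%). Without Steap4f/f replicate 1 these counts were 2 and 2 (17.4% of all genes in each direction), and without both libraries 2 (27.7%) and 5 (29.5%). Relative to the Steap4f/f mean, the median log2 deviation of the members was -0.54 in replicate 2 and 0.09 in replicate 3, and it lay between -0.08 and 0.07 in the Steap4f/f libraries.

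Levels of different genes were compared per kilobase of annotated exon. In Steap4f/f the median normalized count per kilobase was highest for Retn at 10418, followed by Slc2a4 at 1686, Akt2 at 1336, Akt1 at 507 and Pik3r1 at 301. Below these came Foxo1 at 202, Insr at 161, Irs2 at 95.5, Slc2a1 at 79.7 and Irs1 at 52.8. In Steap4f/f the ranges overlapped between the neighbours Slc2a4 and Akt2, Pik3r1 and Foxo1, Insr and Irs2, Irs2 and Slc2a1, and Slc2a1 and Irs1. Slc2a4 was nonetheless above Akt2 in each of the 4 Steap4f/f libraries, but below it in both Steap4AKO libraries. The other pairs named did not keep their order in every library. The ranges of Akt1 and Pik3r1 overlapped too, although Akt1 was above Pik3r1 in each of the 6 libraries. Retn was above Slc2a4, Akt2 above Akt1 and Foxo1 above Insr in all 6.

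The receptor gene Insr (ENSMUSG00000005534; chromosome 8, 3122061 to 3279617, minus strand, GRCm38) had normalized counts of 2294, 2127, 2014 and 2458 in Steap4f/f replicates 1, 2, 5 and 6. It had 1502 and 2221 in Steap4AKO replicates 2 and 3. The lower value was below all controls, while Steap4AKO replicate 3 lay in the middle of their range. The log2 difference of the group means was -0.28 (SE 0.18, 95% interval -0.70 to 0.14, limma adjusted p = 0.444), and 0.0025 without Steap4AKO replicate 2.

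The docking protein genes Irs1 and Irs2 lay on opposite sides of the control mean in both Steap4AKO libraries. Irs1 (ENSMUSG00000055980; chromosome 1, 82233101 to 82291416, minus strand) measured 421.9, 358.2, 558.2 and 544.2 across Steap4f/f, and 240.1 and 399.4 across Steap4AKO. Irs2 (ENSMUSG00000038894; chromosome 8, 10984681 to 11008458, minus strand) measured 565.8, 437.2, 641.8 and 1157 across Steap4f/f, and 1121 and 1196 across Steap4AKO. For Irs1 Steap4AKO replicate 3 lay inside the control range, and for Irs2 Steap4f/f replicate 6 stood with the Steap4AKO libraries, away from the other 3 controls. Neither gene passed on its own, with log2 differences of -0.58 (SE 0.27, limma adjusted p = 0.312) for Irs1 and 0.82 (SE 0.34, limma adjusted p = 0.261) for Irs2. Without Steap4AKO replicate 2 they were -0.21 and 0.87. The ratio of Irs2 to Irs1 within a library, which scaling does not alter, came to 1.34, 1.22, 1.15 and 2.13 across Steap4f/f, and 4.67 and 2.99 across Steap4AKO. Both Steap4AKO libraries were above every control in this ratio. Its log2 value differed by 1.40, from 0.50 ± 0.40 (SD, n = 4) to 1.90 ± 0.45 (SD, n = 2), with an exact permutation p of 0.0667 (two-sided; adjusted p = 0.133 over 4 ratios). With 4 against 2 libraries 0.0667 is the smallest p that the 15 arrangements allow. Without Steap4AKO replicate 2 the log2 difference of this ratio was 1.08, and without replicate 3 it was 1.72. Irs1 shares 2822 exon bases with Gm9747 on the opposite strand, and no source used says whether counting used strand. Reads of that stretch cannot be told apart without strand, so the values of Irs1 are uncertain. Gm9747 measured 1556, 866.7, 938.2 and 744.8 across Steap4f/f, and 273.0 and 662.6 across Steap4AKO, so that both Steap4AKO libraries were below every control there as well.

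The 250 bases before the RefSeq start of Retn, Irs2 and Slc2a1 are shown. These stand for the hormone, a docking protein and a transporter among members that have an entry. They were chosen with the values and matches known. Of the 10 members, 8 had entries, with 13 windows in all. The sequences are from RefSeq on GRCm38.p6, 5′ to 3′ on the gene's strand, at chr8:3655520-3655769 (plus strand) for Retn, chr8:11008930-11009179 (minus strand) for Irs2, chr4:119108495-119108744 (plus strand) for Slc2a1. Capitals mark the insulin response letters CAAAACA, which read TGTTTTG on the strand printed, in Irs2 and the HIF core letters ACGTG in Slc2a1.
Retn: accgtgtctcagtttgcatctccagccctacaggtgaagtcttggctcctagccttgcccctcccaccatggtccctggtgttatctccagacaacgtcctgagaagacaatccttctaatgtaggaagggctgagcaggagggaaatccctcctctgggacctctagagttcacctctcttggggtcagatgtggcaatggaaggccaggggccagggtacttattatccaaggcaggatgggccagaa
Irs2: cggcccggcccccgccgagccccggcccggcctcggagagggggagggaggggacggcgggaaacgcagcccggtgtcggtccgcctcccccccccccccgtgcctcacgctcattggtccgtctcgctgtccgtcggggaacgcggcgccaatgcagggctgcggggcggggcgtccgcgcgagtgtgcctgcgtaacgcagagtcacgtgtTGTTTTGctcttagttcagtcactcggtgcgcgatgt
Slc2a1: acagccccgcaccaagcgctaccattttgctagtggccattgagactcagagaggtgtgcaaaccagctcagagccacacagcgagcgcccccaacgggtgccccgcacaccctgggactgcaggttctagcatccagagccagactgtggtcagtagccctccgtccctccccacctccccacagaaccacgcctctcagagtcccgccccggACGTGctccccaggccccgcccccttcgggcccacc

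The letters in Irs2 begin at position -37 from the RefSeq start and those in Slc2a1 at -36. For both genes the RefSeq start differs from that of the gene positions given here. Irs2 also holds the HIF letters on both strands, which overlap each other at -44 and -43 and were left in lower case. So were the GC box letters, found at -85 in Irs2 and, on the opposite strand, at -45 and -20 in Slc2a1. In all, 8 motifs were searched on both strands of 32851 windows of the same length. The 8 members held 13 windows, and a member counts if any of its windows has the letters. The shares are per single window, so that counts and shares are in unlike units and show no excess or lack. The insulin response letters were in 2 of the 8 members with an entry, Irs1 and Irs2, and in 5.56% of windows. The FOXO letters GTAAACA were in 1 member, Akt1, and 3.17% of windows, and the HIF letters in 4 members and 16.6% of windows. The TATA letters TATAAA were in 1 member (12.4% of windows), the C/EBP letters TTGCNNAA in 0 (9.56%) and the cyclic AMP response letters TGACGTCA in 0 (1.55%). The shorter TGACG, which is part of TGACGTCA, was in 3 members (17.8% of windows) and the GC box letters GGGCGG in 7 (32.7%). A match describes letters only, and no match says only that the letters are not in the window.

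**Figure D2:**
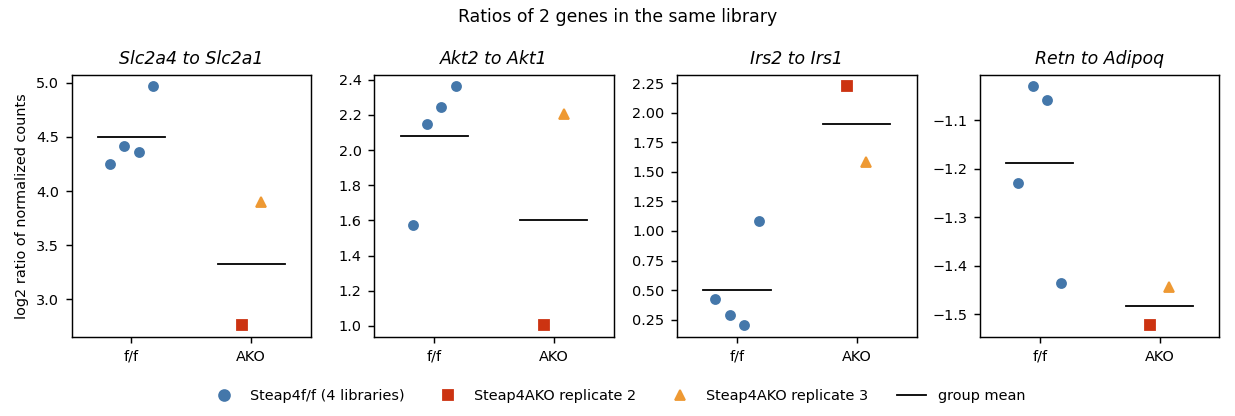
Log2 ratios of 2 genes within each library, with circles for the 4 Steap4f/f libraries, a square for Steap4AKO replicate 2, a triangle for Steap4AKO replicate 3 and lines for group means. The Irs2 to Irs1 ratio was above every control in both Steap4AKO libraries and the Slc2a4 to Slc2a1 ratio below, while the Akt2 to Akt1 ratios overlapped.

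Pik3r1, the gene for p85 alpha (ENSMUSG00000041417; chromosome 13, 101680563 to 101768217, minus strand), varied most within the controls. It measured 6197, 2296, 3778 and 1987 across Steap4f/f, and 2258.5 and 3042 across Steap4AKO. The controls thus differed by 3.12-fold, and both Steap4AKO libraries lay inside their range (log2 difference -0.29, SE 0.43, limma adjusted p = 0.743). Steap4f/f replicate 1, which held the highest Pik3r1, also had 821.1 for Socs3, an inhibitor of cytokine and insulin signalling that is named here after its values were seen, against 130.9 to 151.3 in the other controls. Without that library the log2 difference of Pik3r1 was 0.02.

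In Steap4AKO replicate 2 the kinase gene Akt1 lay above all controls and Akt2 below. Akt1 (ENSMUSG00000001729; chromosome 12, 112653821 to 112674884, minus strand) measured 2582, 2049, 2106 and 2052 across Steap4f/f, and 2793.5 and 2480 across Steap4AKO. Akt2 (ENSMUSG00000004056; chromosome 7, 27591552 to 27640826, plus strand), the form that dominates in insulin-responsive tissues, measured 7694, 9068, 9979 and 10546 across Steap4f/f, and 5598 and 11426 across Steap4AKO. The Steap4AKO libraries were thus the lowest and the highest of all for Akt2. The log2 differences were 0.27 (SE 0.15, limma adjusted p = 0.378) for Akt1 and -0.21 (SE 0.28, limma adjusted p = 0.717) for Akt2. Akt2 reads exceeded those of Akt1 by 2.98, 4.43, 4.74 and 5.14 times in Steap4f/f and by 2.00 and 4.61 times in Steap4AKO, so that replicate 3 lay inside the control range. The log2 ratio differed by -0.48 (exact permutation p = 0.4, two-sided; adjusted p = 0.4 over 4 ratios), and by 0.12 without Steap4AKO replicate 2.

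Foxo1, the transcription factor gene (ENSMUSG00000044167; chromosome 3, 52268336 to 52353221, plus strand), measured 1663, 1586, 1838 and 1993 across Steap4f/f, and 1581 and 2245 across Steap4AKO. One Steap4AKO library was just below and the other above the controls, and the log2 difference was 0.10 (SE 0.18, 95% interval -0.32 to 0.51, limma adjusted p = 0.801). Foxo1 shares 674 exon bases with the antisense gene Gm20402, which reached at most 81.3.

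The glucose transporter genes lay on opposite sides of the controls in Steap4AKO, and neither passed the test. Slc2a4, the gene for GLUT4 (ENSMUSG00000018566; chromosome 11, 69942539 to 69948188, minus strand), measured 5106, 6526, 5985 and 5742 across Steap4f/f, and 2179 and 5067 across Steap4AKO. Both Steap4AKO libraries were below the controls, but replicate 3 was close to Steap4f/f replicate 1, while replicate 2 was far below. The log2 difference was -0.81 (SE 0.30, 95% interval -1.51 to -0.11), from 5840 ± 588 (SD, n = 4) to 3623 ± 2042 (SD, n = 2), and did not pass (limma adjusted p = 0.227). It was -0.20 without Steap4AKO replicate 2 and -1.42 without replicate 3. Each of these 2 fits rests on 1 Steap4AKO library and is given as an effect size only. In the controls Slc2a4 varied by 1.28-fold, while the muscle markers ranged from 26.7 to 177%. Steap4f/f replicate 1 had the lowest of both. Steap4f/f replicate 6 had the highest muscle markers, but less Slc2a4 than replicates 2 and 5, whose muscle markers were at 114 and 81.5%. The part of muscle in Slc2a4 was not tested.

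Slc2a1, the gene for GLUT1 (ENSMUSG00000028645; chromosome 4, 119108711 to 119137983, plus strand), measured 267.6, 305.6, 291.0 and 183.6 across Steap4f/f, and 322.2 and 340.1 across Steap4AKO. The Steap4AKO libraries were close to each other and just above the highest control (log2 difference 0.36, SE 0.25, limma adjusted p = 0.466). Slc2a4 reads exceeded those of Slc2a1 by 19.1, 21.4, 20.6 and 31.3 times in Steap4f/f and by 6.76 and 14.9 times in Steap4AKO. Both Steap4AKO ratios were below every control. The log2 ratio differed by -1.17, from 4.50 ± 0.32 (SD, n = 4) to 3.33 ± 0.81 (SD, n = 2), with an exact permutation p of 0.0667 (two-sided; adjusted p = 0.133 over 4 ratios), the smallest that this design allows. Without Steap4AKO replicate 2 the log2 difference of the ratio was -0.60.

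Retn, the gene for resistin (ENSMUSG00000012705; chromosome 8, 3655770 to 3660110, plus strand), was the most abundant member. It measured 18364, 17641, 15258 and 13615 across Steap4f/f, and 7609 and 13445 across Steap4AKO. Both Steap4AKO libraries were below the controls, replicate 3 only just so. The log2 difference was -0.67 (SE 0.25, 95% interval -1.25 to -0.09), from 16219 ± 2186 (SD, n = 4) to 10527 ± 4127 (SD, n = 2), and did not pass (limma adjusted p = 0.228). It was -0.26 without Steap4AKO replicate 2 and -1.08 without replicate 3. Adiponectin (Adipoq), another adipocyte hormone, measured 43018, 36021, 31773 and 36795 across Steap4f/f, and 21862 and 36584 across Steap4AKO. The ratio of Retn to Adipoq came to 0.427, 0.490, 0.480 and 0.370 across Steap4f/f, and 0.348 and 0.368 across Steap4AKO. The Steap4AKO ratios were below the lowest control by a small margin, and the log2 ratio differed by -0.30 (exact permutation p = 0.133, two-sided; adjusted p = 0.178 over 4 ratios).

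**Figure D3:**
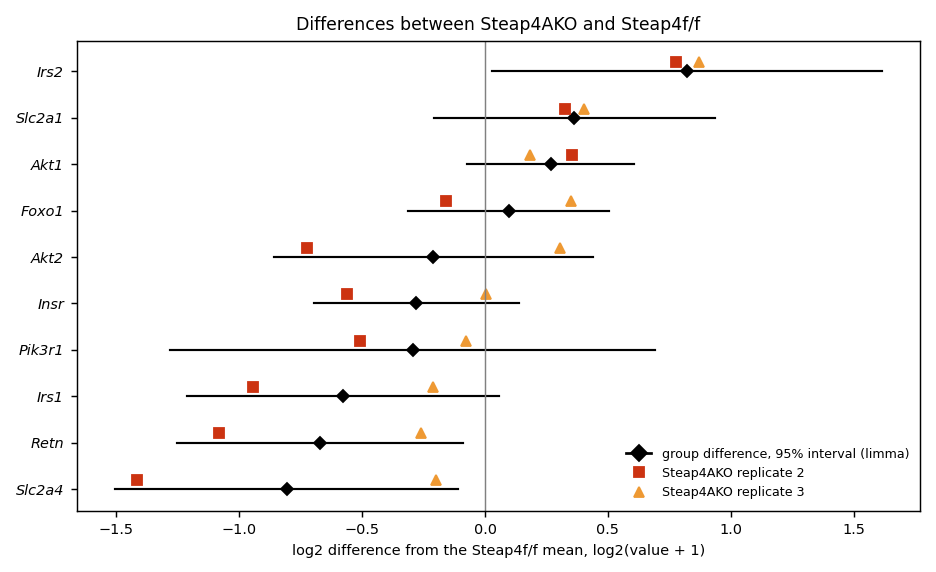
Log2 differences between Steap4AKO and Steap4f/f for the 10 genes, on the log2(value + 1) scale. Diamonds with lines are the group difference and its 95% interval in limma, squares Steap4AKO replicate 2 and triangles Steap4AKO replicate 3, each relative to the Steap4f/f mean; Irs2, Slc2a1 and Akt1 have both libraries to the right of 0, and Slc2a4, Retn, Irs1 and Pik3r1 have both to the left.

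The low values in Steap4AKO replicate 2 stood beside a low average of the adipocyte markers in that library, but these markers did not move together. Adipoq, Plin1, Lipe, Fabp4, Pparg and Cfd were below every control there. Cidec and Plin4 were inside the control range, and Lpl, at 198254, was just above the highest control, at 197997. With columns scaled to an equal mean level of the 9 adipocyte markers, a setting chosen after seeing the data, the median of all genes moved to 0.42, and log2 differences have to be read against that shift. On that scale Slc2a4 was at -0.41, Retn at -0.27 and Irs1 at -0.18, while Irs2 was at 1.22, Slc2a1 at 0.76 and Akt1 at 0.67. Insr, Akt2 and Pik3r1, negative as deposited, were at 0.12, 0.19 and 0.10, which is positive but below the median of all genes. No member passed on that scale. With the muscle marker level as a covariate, Slc2a4 was at 0.54, Akt2 at 1.11 and Irs1 at 0.25, all reversed in sign, and Irs2 was at 1.46. That covariate correlated with genotype at -0.898, so that the muscle content and the genotype can hardly be told apart in such a fit, and no member passed. Irs2, Slc2a1 and Retn kept their sign under all 18 settings tried, and the other members did not.

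**Figure D4:**
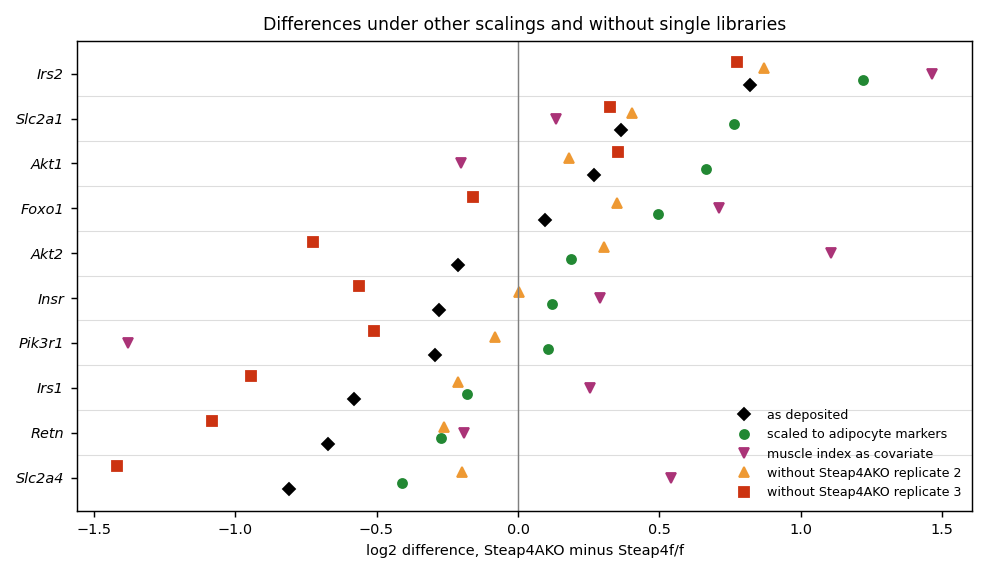
Log2 difference of each gene between Steap4AKO and Steap4f/f as deposited (diamonds), with columns scaled to adipocyte markers (circles), with the muscle index as a covariate (inverted triangles), without Steap4AKO replicate 2 (triangles) and without Steap4AKO replicate 3 (squares). Irs2, Slc2a1 and Retn stay on 1 side of 0 in all 5, whereas Insr, Irs1, Slc2a4, Akt1 and Akt2 cross it with the muscle index. Insr and Akt2 also cross it with adipocyte scaling and without Steap4AKO replicate 2. Pik3r1 crosses it with adipocyte scaling and Foxo1 without replicate 3.

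The genes whose values over the 6 libraries were most like those of a member were found among 12331 other genes with a mean of at least 50, by Pearson correlation of log2 values. These are descriptions over 6 libraries that share the outlying library. Slc2a4 was most like Npepl1 (r = 0.996) and Angpt1 (r = 0.994), Retn most like Mrpl39 (r = 0.996) and Gm454 (r = 0.995), and Insr most like Cdadc1 (r = 0.993) and Tspan12 (r = 0.991). Irs1 was most like 1110008L16Rik (r = 0.994) and Foxred1 (r = 0.990), and Irs2 most like Fbxo42 (r = 0.989) and Heca (r = 0.987). Akt1 was most like Cenpo (r = 0.998) and Faf2 (r = 0.990), and Akt2 most like Nnat (r = 0.996) and Serpine2 (r = 0.990). Slc2a1 was most like Epha2 (r = 0.991) and Ltbr (r = 0.989), Pik3r1 most like Rdh5 (r = 0.989) and Kctd11 (r = 0.980), and Foxo1 most like Wiz (r = 0.983) and Slc44a1 (r = 0.981). Among the members themselves Slc2a4 followed Retn (r = 0.91), Insr (r = 0.855), Akt2 (r = 0.826) and Irs1 (r = 0.805), and ran against Akt1 (r = -0.809).

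The other genes of the pathway, in 8 lists, numbered 131, of which 125 were in the table and tested. Of these 125, 1 passed the test (limma), lower in Steap4AKO, against 0.433% of all genes in that direction, and 0 passed higher, against 0.04%. An unadjusted limma p under 0.05 was found for 26 of the 125, and for 18.1% of all genes. Both Steap4AKO libraries were below every control for 17 of the 125 (13.6%) and above for 15 (12%), close to the 14.4% and 14.1% of all genes. Without Steap4AKO replicate 2 these counts were 26 and 34 of 125, where 23.4% and 24.4% of all genes were so placed.

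Among the receptor family, substrates and adaptors, 0 of 14 passed, with a median log2 difference of 0.22. Of the 14, 3 were above every control in both Steap4AKO libraries (14.1% of all genes) and 1 below (14.4%). Gab1, a docking protein, had a 1.32-fold higher mean and Sh2b1, an adaptor that promotes receptor signalling, a 1.35-fold lower mean, each with no overlap between groups.

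Among 21 negative regulators of insulin signalling, 1 was above every control in both Steap4AKO libraries (14.1% of all genes) and 1 below (14.4%). Of the 21, 0 passed the test, with a median of 0.09. Ptprf, a receptor phosphatase that acts on the insulin receptor, came closest. It measured 618.3, 651.4, 573.1 and 531.6 across Steap4f/f, and 1565 and 1057 across Steap4AKO. Both Steap4AKO libraries were far above a tight control range (2.21-fold higher mean), and the limma adjusted p was 0.0527. It passed with a pseudocount of 5 (limma adjusted p = 0.0485), where 123 of all genes passed against 71 in the main fit. With 1 library left out the log2 difference of Ptprf was 0.84 to 1.40, and it was largest without Steap4AKO replicate 3. That fit rests on Steap4AKO replicate 2 alone, the library that stood apart, and is given as an effect size only. The phosphoinositide phosphatase gene Inppl1 had a 1.32-fold lower mean without overlap, and its log2 difference went from -0.40 to -0.26 without Steap4AKO replicate 2. Enpp1, an inhibitor of the receptor, had 131.4 in Steap4AKO replicate 2 but 29.3 in replicate 3, inside the control range of 14.3 to 49.9.

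In the list of PI3-kinase, PDK1, AKT and mTOR complexes 0 of 19 passed, with a median of -0.02. In it 5 were above every control in both Steap4AKO libraries (14.1% of all genes) and 1 was below (14.4%). The 1 below was Rictor, the mTORC2 scaffold, named after its values were seen, with 425.8 to 504.1 in Steap4f/f and 314.7 and 400.4 in Steap4AKO (limma adjusted p = 0.292). Pik3c2a, a class II PI3-kinase, measured 428.7, 392.8, 430.7 and 536.3 across Steap4f/f, and 781.3 and 623.8 across Steap4AKO, a 1.57-fold higher mean (limma adjusted p = 0.155). Rptor, the mTORC1 scaffold, had a 1.33-fold higher mean, also without overlap.

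GLUT4 traffic genes held 0 of 19 that passed, with a median of -0.09. In both Steap4AKO libraries 4 were below every control (14.4% of all genes) and 0 above (14.1%). The 4 were Tbc1d4, Stx4a, Trip10 and Rab10, the last, a GTPase of GLUT4 vesicles, named after its values were seen. Tbc1d4, the AKT substrate AS160 that holds GLUT4 inside the cell, measured 1136, 1045, 922.2 and 1281 across Steap4f/f, and 759.0 and 782.3 across Steap4AKO. The Steap4AKO libraries were close to each other and below the controls (1.42-fold lower mean, log2 difference -0.50, SE 0.16, limma adjusted p = 0.186). Stx4a, the syntaxin at which GLUT4 vesicles fuse, measured 1511, 1165, 1210.5 and 1230.0 across Steap4f/f, and 921.3 and 934.3 across Steap4AKO (1.38-fold lower mean, limma adjusted p = 0.187). Trip10, a partner of the GTPase TC10, had a 1.62-fold lower mean, with 619.3 and 917.6 in Steap4AKO (limma adjusted p = 0.148), and its log2 difference went from -0.71 to -0.43 without Steap4AKO replicate 2. For Tbc1d4 and Stx4a, unlike Slc2a4, Steap4AKO replicate 3 was as low as replicate 2.

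Of the other glucose transporters 0 of 8 passed, and 0 had groups without overlap (below in 14.4% and above in 14.1% of all genes). Slc2a10, Slc2a12 and Slc2a13 had Steap4AKO values of 303.3 and 175.0, 150.9 and 57.3, and 165.8 and 539.9, with Steap4AKO replicate 3 inside the control range each time.

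The metabolic effectors of insulin had a median of -0.47, with 11 of 12 means lower (47.8% of all genes) and 0 passing. The median log2 deviation from the Steap4f/f mean was -0.88 in Steap4AKO replicate 2, with 11 of 12 genes below that mean (48.9% of all genes), and -0.17 in replicate 3, with 8 of 12 below (48.8% of all genes). Acaca, which makes malonyl-CoA for fatty acid synthesis, measured 14896, 8644, 12642 and 9935 across Steap4f/f, and 4283 and 7192 across Steap4AKO (2.01-fold lower mean, limma adjusted p = 0.141). Pnpla3, a lipid droplet protein induced by feeding, measured 13289, 12431, 14198 and 8970 across Steap4f/f, and 5036 and 8329 across Steap4AKO, a 1.83-fold lower mean. Without Steap4AKO replicate 2 the log2 difference went from -1.02 to -0.65 for Acaca and from -0.89 to -0.53 for Pnpla3. Gsk3a, a glycogen synthase kinase that AKT inhibits, had a 1.38-fold lower mean. Groups did not overlap in these 3 genes. Of the 12, 4 were below every control in both Steap4AKO libraries (14.4% of all genes) and 0 above (14.1%). With columns scaled to adipocyte markers the median of all genes was 0.42, and these differences were not called on that scale either.

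The FOXO family and FOXO targets held the 1 gene that passed among 19, lower in Steap4AKO (0.433% of all genes). The median log2 difference of the list was -0.45. Relative to the Steap4f/f mean, the median log2 deviation was -0.49 in Steap4AKO replicate 2 and -0.18 in replicate 3. In each of these libraries 16 of 19 genes were below that mean (48.9 and 48.8% of all genes). Of the 19, 5 were below every control in both Steap4AKO libraries (14.4% of all genes) and 1 above (14.1%). Trim63, a ubiquitin ligase of skeletal muscle, measured 619.7, 850.2, 378.2 and 387.3 across Steap4f/f, and 4.3 and 19.1 across Steap4AKO, and fell by 5.67 on the log2 scale (limma adjusted p = 0.0466), beside the muscle markers at 0.831 and 5.32% in the same Steap4AKO libraries. It did not pass without Steap4f/f replicate 2, 5 or 6 (limma adjusted p of 0.177, 0.154 and 0.123) or with the muscle covariate (limma adjusted p = 0.652). Nor did it pass with a pseudocount of 0.5, a minimum mean of 50 or the robust prior (limma adjusted p of 0.0503, 0.0512 and 0.065). The log2 difference was -5.44, -5.83 and -5.82 without those Steap4f/f libraries. It was -4.71 without Steap4AKO replicate 2 and -4.14 with the covariate. Pdk4, which blocks pyruvate oxidation and is repressed by insulin, measured 3635, 4171, 5063 and 12469 across Steap4f/f, and 1821.5 and 1709 across Steap4AKO (3.59-fold lower mean, limma adjusted p = 0.135). Foxo3, a relative of Foxo1, measured 590.6, 584.7, 586.0 and 598.8 across Steap4f/f, and 998.2 and 835.0 across Steap4AKO. The controls were nearly equal and both Steap4AKO libraries were above them (1.55-fold higher mean, log2 difference 0.63, limma adjusted p = 0.0943). Foxo1 differed in this, as its Steap4AKO libraries fell on both sides. With 1 library left out the log2 difference of Foxo3 was 0.50 to 0.76.

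In the list of resistin relatives, resistin binding proteins and other adipokines 0 of 13 passed, with a median of 0.26. In both Steap4AKO libraries 5 were above every control (14.1% of all genes) and 1 was below (14.4%). The 1 below was Cfd, the gene of adipsin and one of the adipocyte markers, named after its values were seen, with a 3.35-fold lower mean (limma adjusted p = 0.168). Retnla, a resistin-like gene of fat and macrophages, measured 1034, 908.6, 1280 and 1264 across Steap4f/f, and 2055 and 2171 across Steap4AKO. Both Steap4AKO libraries were above all controls and close to each other, whereas Retn was below, and the test was not passed (1.88-fold higher mean, log2 difference 0.93, SE 0.17, limma adjusted p = 0.0658). The gene of the adipokine leptin, Lep, had a 2.99-fold higher mean (limma adjusted p = 0.0988). It passed without Steap4f/f replicate 1 (limma adjusted p = 0.0434), where 238 of all genes passed against 71 in the main fit. It also passed on the adipocyte scale (limma adjusted p = 0.0169), where 191 passed. That scale was chosen after seeing the data and moved the median of all genes to 0.42. Under the other settings tried Lep did not pass.

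**Figure D5:**
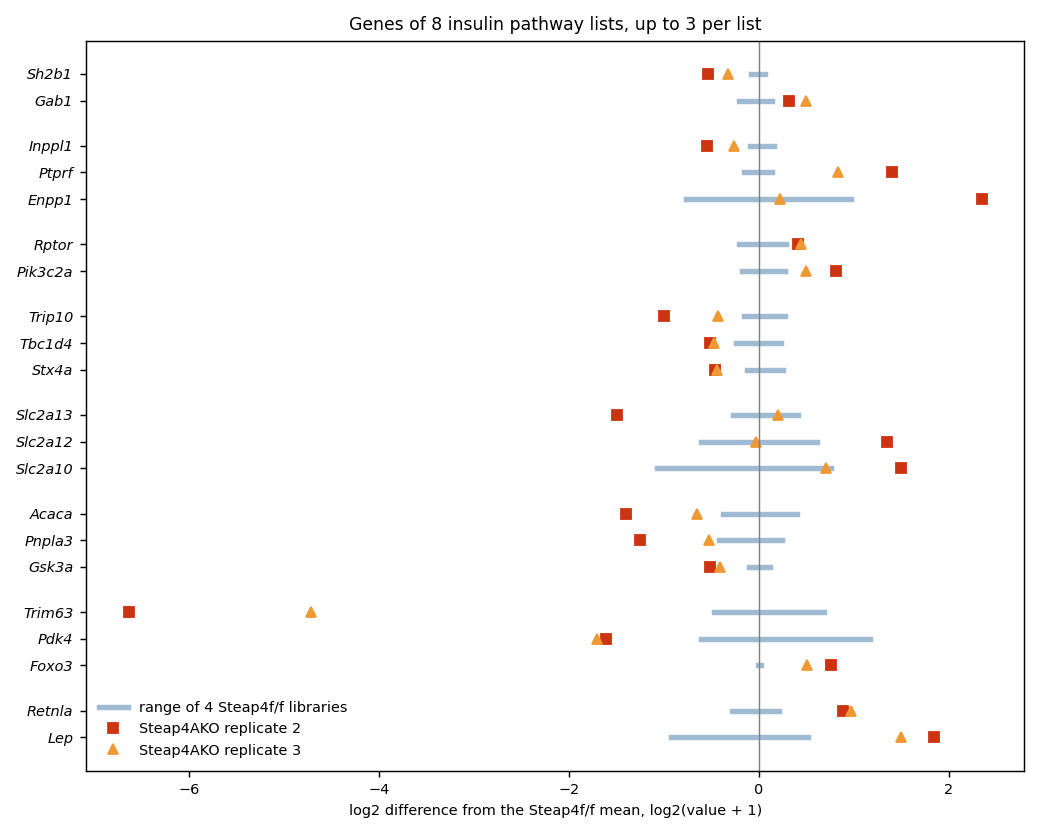
Log2 difference of Steap4AKO replicate 2 (squares) and replicate 3 (triangles) from the Steap4f/f mean for up to 3 genes with the smallest p in each of 8 pathway lists, in the order of the text, with bars for the range of the 4 Steap4f/f libraries. Trim63 was far below its controls in both libraries, and Tbc1d4, Stx4a, Gsk3a, Pdk4 and Retnla were similar in both.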

How the data were processed

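Libraries were made from total RNA of whole fat tissue, 4 Steap4f/f and 2 Steap4AKO. The deposited values are a signal, read counts per gene that the authors had scaled by DESeq2 size factors, going by the table's title. The submitters' processing notes list, without role or order, DESeq2 1.12.4, R 4.2.0, RSEM 1.3.3 and STAR 2.7.0e. Whole reads could not be recovered, since 48.1 to 57.8% of low values lay within 0.1 of a multiple of 1 read, so that a count test and counting intervals were not used. GENCODE M21 (GRCm38) gave symbols for 15125 of 15176 identifiers, positions and exon lengths. Members and gene lists were chosen with earlier results of these data known.

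Genotypes were compared by limma 3.58.1 (R 4.3.3), two-sided, after adding 1 and taking log2, with a variance trend, over 15006 genes with a mean of at least 10. This scale understates changes of low genes. Named genes were the members, Steap4, the called genes and the 3 smallest p-values of each list, and the 2 genes most like each member. Markers set beside a member were also named, and their own log2 differences were not recomputed under the alternatives. On data simulated for this comparison (200 changed of 14449 to 14480 genes), 35.6% of 2-fold and 75% of 4-fold changes were recovered, with 5.2 false calls per run. All simulated libraries took each gene's spread from the Steap4f/f libraries. These rates therefore do not hold for libraries that differ as the 2 Steap4AKO libraries did. Ratios were tested by exact permutation. Figures were drawn with matplotlib 3.10.9. Alternatives covered pseudocount, filter, scaling, weights, prior, covariate and each library left out. Where 1 Steap4AKO library was left out, the lone library was assumed to vary like the controls. Some genes that the naming rule selects are not reported here, though the counts include them.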

Additional observations from a re-analysis of the deposited data

Results flagged for a closer look

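Among 59 values examined for a control library that stood apart from the other 3, 4 did so, where chance gives about 1 in 20. Akt1 had its highest Steap4f/f value, 2582 in replicate 1, separated from the next by 0.892 of the group's range. Cenpo, the gene most like Akt1 over the libraries, had 141.1 in the same library, at 0.838 of the range. Steap4 had 17018 there too, at 0.873 of the range. Pdk4 had 12469 in Steap4f/f replicate 6, at 0.838 of the range.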

How the results depend on the processing

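With 2 Steap4AKO libraries, 1 of which stood apart, small differences could not be resolved. No paired analysis was possible because the groups share only 1 replicate number. Of 180 recomputed log2 differences of the 10 members, 164 kept their direction and side of the threshold, 15 turned and 1 newly passed; of 809 for the other 45 named genes, 753 did so, 40 turned, 8 newly passed and 8 no longer passed. Over all genes 71 passed. That count was 1 with a pseudocount of 0.5, a minimum mean of 50, a robust prior or the muscle covariate, 123 with a pseudocount of 5, 119 with array weights, 191 with adipocyte scaling, 245 without Steap4f/f replicate 1 and Steap4AKO replicate 2 together, and 1 to 821 with 1 library left out. Members that passed numbered 0, and 0 to 1 with 1 library left out. Pathway genes that passed numbered 1, then 0 with a pseudocount of 0.5, a minimum mean of 50, the robust prior or the muscle covariate, 2 with a pseudocount of 5, 3 with adipocyte scaling, and 0 to 5 with 1 library left out. The members' median of -0.25 became -0.061 with equal sums (all genes 0.21), -0.13 with quantile normalization, 0.27 with the muscle covariate, 0.15 with adipocyte scaling (all genes 0.42), 0.23 without both outlying libraries and -0.54 to 0.092 with 1 library left out. With adipocyte scaling the sign turned for Steap4 (0.046), Insr (0.12), Akt2 (0.19), Pik3r1 (0.10), Cdadc1 (0.16), Foxred1 (0.025), Kctd11 (0.30), Mrpl39 (0.052), Rdh5 (0.33) and Serpine2 (0.30). With the muscle covariate the sign turned for Insr (0.29), Irs1 (0.25), Slc2a4 (0.54), Akt1 (-0.20), Akt2 (1.11), 1110008L16Rik (0.28), Angpt1 (0.41), Cdadc1 (0.42), Cenpo (-0.15), Enpp1 (-0.43), Faf2 (-0.19), Foxred1 (0.18), Inppl1 (0.036), Nnat (2.38), Npepl1 (0.36), Serpine2 (0.91), Slc2a12 (-0.32), Slc2a13 (0.82) and Tspan12 (0.27). Without both outlying libraries the sign turned for Insr (0.019), Akt2 (0.21), Pik3r1 (0.24), Cdadc1 (0.076), Kctd11 (0.049), Nnat (0.37), Rdh5 (0.098), Serpine2 (0.18), Slc2a12 (-0.0061) and Slc2a13 (0.22). With equal sums the sign turned for Kctd11 (0.088), Rdh5 (0.12) and Serpine2 (0.081). With 1 library left out the ranges that spanned 0 were -0.56 to 0.0025 for Insr, -0.73 to 0.30 for Akt2, -0.53 to 0.021 for Pik3r1, -0.16 to 0.35 for Foxo1, -0.55 to 0.068 for Cdadc1, -0.17 to 0.029 for Kctd11, -1.75 to 0.57 for Nnat, -0.15 to 0.041 for Rdh5, -0.47 to 0.26 for Serpine2, -0.036 to 1.34 for Slc2a12, -1.50 to 0.20 for Slc2a13, -0.051 to 0.26 for Slc44a1, -0.10 to 0.43 for Wiz and -1.08 to 0.12 for the log2 ratio of Akt2 to Akt1. The cause was not tested. Adipocyte scaling and the removal of both outlying libraries were chosen after seeing the data.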
